A study of Homo sapiens with 12 samples.

Results

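HCC1954 is a human breast ductal carcinoma cell line that carries many copies of ERBB2, and the genes that set it apart from MDA-MB-231 (breast), OVCAR8 (ovarian) and SKOV3 (ovarian) were read from bulk RNA-seq counts. The members were the 3 HCC1954 libraries of the 12 in the series, chosen by their label, and each of the other lines also gave 3 libraries. In every line 1 library came from control cells (labelled parental with no treatment, and called EV by the study), 1 from cells stably transfected with wild-type SIVA (SIVA-WT) and 1 from cells stably transfected with the D160N mutant (SIVA-D160N). SIVA is a pro-apoptotic protein that binds the receptor CD27, and both forms were driven by the CMV promoter in polyclonal, drug-selected populations. All lines grew in the same serum-containing medium, and no condition had a second library. The 3 libraries of a line therefore differed in vector, and the spread between them held the effect of the vector as well as technical error.

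The HCC1954 libraries held 43200562 counts (EV), 42666382 counts (SIVA-WT) and 36444830 counts (SIVA-D160N), and the 12 libraries ranged from 35791455 to 45890398. Levels are given as CPM, the counts of a gene scaled to a common library size with TMM factors, in the order EV, SIVA-WT, SIVA-D160N unless stated, and 3 counts, taken as the limit of detection, were worth 0.0682 to 0.0837 CPM in the HCC1954 libraries. SIVA1, the gene that was introduced, had 0 counts in the HCC1954 EV library and 37.4 and 26.0 CPM in the SIVA-WT and SIVA-D160N libraries. The EV libraries of MDA-MB-231, OVCAR8 and SKOV3 held 28.6, 66.6 and 51.6 CPM of SIVA1, so the HCC1954 control was the only library of the 12 with none. A count of 0 in that library allows up to 0.0704 CPM. In the transfected libraries, counts per gene do not separate the introduced SIVA from the SIVA1 of the line itself. Within HCC1954, only the EV library thus gives the level of the line's own gene. That library stood apart from all others in SIVA1, and why was not tested.

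Epithelial cells are held together by E-cadherin junctions, claudins and desmosomes, and they carry keratin filaments whose type tells a luminal, a basal or a squamous cell. Grainyhead and OVOL factors and the ESRP splicing regulators maintain that state, whereas ZEB1, ZEB2 and SNAI repressors read E-box letters in epithelial promoters and drive the mesenchymal programme of vimentin, N-cadherin and matrix genes. ERBB2 (HER2) is a receptor tyrosine kinase without a ligand of its own that signals in pairs with EGFR, ERBB3 or ERBB4, and its amplification at 17q12 takes neighbouring genes with it.

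HCC1954 differed from the other lines across much of its RNA. Epithelial, squamous and 17q12 genes were among the higher ones, and mesenchymal genes and zinc finger genes of chromosome 19 among the lower ones. Of 57187 genes counted, 19204 had enough counts to be tested. Against the mean of the other 3 lines, 3221 genes (16.8%) were higher and 2126 (11.1%) were lower in HCC1954 at an adjusted p under 0.05 with a log2 fold change of 1.5 or more in either direction, by edgeR's quasi-likelihood test with line and vector as terms. Against each of the other lines taken singly, 1557 genes (8.11%) were higher and 980 (5.10%) were lower in all 3 contrasts, and these are the genes said below to be higher or lower than every other line. The 3 contrasts share the HCC1954 libraries. Without the HCC1954 EV library, the one with no SIVA1, 1574 genes were higher and 910 lower than every other line. The libraries of a line come from 1 cell line. These p-values therefore measure the spread left within lines after a vector effect common to all lines. They do not measure the spread among cell lines. With the counts of each line summed, leaving 1 HCC1954 sample against 3, edgeR called 0 genes in either direction, with 1093 genes higher and 601 lower at an unadjusted p under 0.05; no other tool was run on the sums.

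A stricter description without a test compared single libraries. In 859 genes (4.47% of those tested) the lowest HCC1954 library had at least 1 CPM and lay at least 2.83-fold above the highest of the other 9 libraries, which is called the high set. In 107 genes (0.557%) no HCC1954 library held more than 3 counts whereas each of the other 9 held at least 1 CPM, which is called the absent set. The median ratio of the lowest HCC1954 library to the highest other library was 10.8 in the high set, 441 of its genes had a ratio of at least 10 and 122 of at least 100. No count at all was found in the other 9 libraries for 74 genes of the high set, and in the 3 HCC1954 libraries for 44 genes of the absent set. At the edge of the high set, SLC12A2 and AMOT lay just inside with ratios of 2.83 and 2.83, and PARP12 and PLD1 just outside with 2.82 and 2.81. At the edge of the absent set, ADGRB3 and FAM155A lay just inside with 1.05 and 1.06 CPM in the lowest other library, and KCTD4 and LINC01111 just outside with 0.991 and 0.987 CPM.

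**Figure D1:**
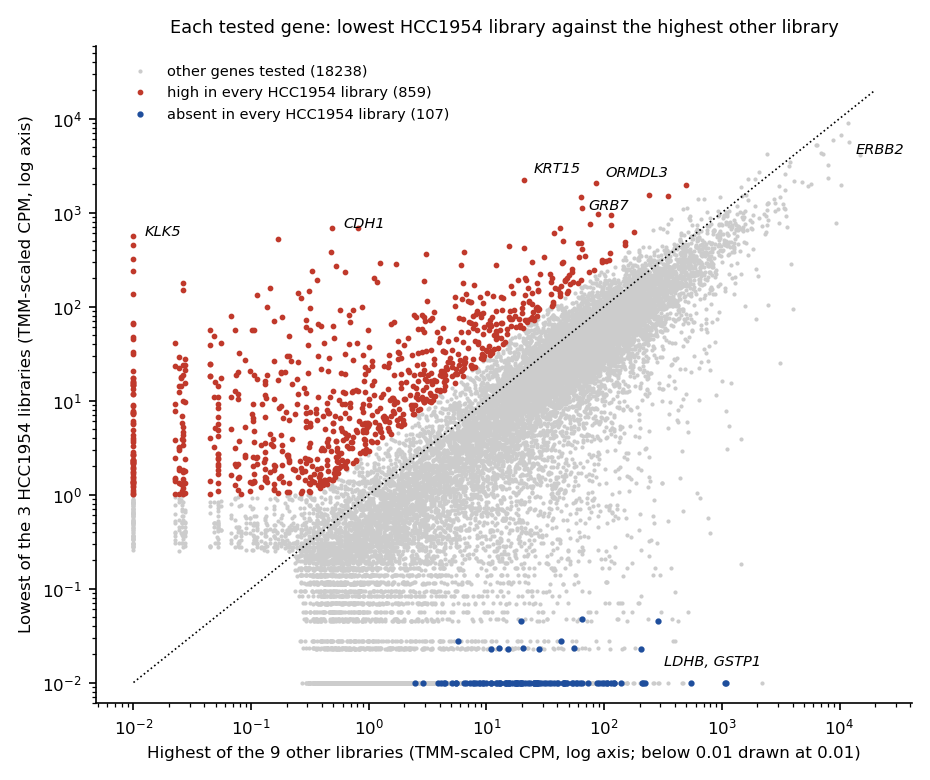
Each point is 1 of the 19204 genes tested, with the highest of the 9 other libraries on the x axis and the lowest of the 3 HCC1954 libraries on the y axis, both in TMM-scaled CPM on log axes with values under 0.01 drawn at 0.01, and the dotted line marks equal values. The 859 genes of the high set (red) lie above the line, the 107 genes of the absent set (blue) lie along the bottom, and ERBB2 (grey, not in the high set) lies to the right of the line.

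At 17q12, HCC1954 carried high RNA from a run of adjacent genes, and SKOV3 shared only part of it. ERBB2 itself had 9017, 7535 and 5609 CPM in HCC1954, against 32.6 to 36.8 CPM in MDA-MB-231 and 69.9 to 78.4 CPM in OVCAR8. SKOV3, which is also known for extra ERBB2 copies, had 11934, 8824 and 5884 CPM. The HCC1954 and SKOV3 values of ERBB2 overlapped, with a log2 fold change of -0.24 (SE 0.18; edgeR adjusted p = 0.245), so the marker of the line separated it from MDA-MB-231 and OVCAR8 and not from SKOV3. GRB7, an adaptor that binds the ERBB2 receptor, had 1456, 1117 and 1187 CPM in HCC1954 and 64.4, 40.4 and 19.8 CPM in SKOV3, with at most 3.98 CPM in the other 2 lines. Its log2 fold change against the mean of the other lines was 7.64 (SE 0.19; edgeR adjusted p = 2.42e-11). ORMDL3, a regulator of sphingolipid synthesis, reached 3402, 2563 and 2056 CPM in HCC1954 and no more than 85.9 CPM elsewhere. All HCC1954 libraries lay above all others for both genes.

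Of the 21 genes listed for the region, 17 could be tested, 7 were higher than every other line and none was lower, and the median log2 fold change against the mean of the others was 4.71, beside 0.0042 over all genes tested. Over all genes tested, 8.11% were higher than every other line. The 7 of the list were GRB7, ORMDL3, GSDMB, MIEN1, PGAP3, PPP1R1B and GSDMA. GSDMB, a pore-forming gasdermin, had 738, 1019 and 684 CPM against at most 42.4 CPM in the other 9 libraries. MIEN1, a small membrane-anchored protein whose gene overlaps the end of ERBB2, had 1082, 878 and 746 CPM against at most 113 CPM. Reads from the overlap may not be separable between MIEN1 and ERBB2. The 4 neighbours MIEN1, GRB7, GSDMB and ORMDL3, which span chr17:39728510-39927601 (GRCh38) with IKZF3 among them, were in the high set. STARD3, a lysosomal cholesterol carrier, had 1655, 1481 and 1410 CPM, but its log2 fold change against SKOV3 was 1.47 (SE 0.13), under the limit of 1.5, and SKOV3 held 699, 572 and 400 CPM.

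PPP1R1B, which encodes the phosphatase inhibitor DARPP-32, spread most widely across the HCC1954 libraries with 110, 65.3 and 13.0 CPM. The SKOV3 libraries, with 43.9, 14.1 and 5.54 CPM, had the same order and overlapped with them, and the 6 libraries of MDA-MB-231 and OVCAR8 held 0 counts. CDK12 and PSMD3, which lie toward either end of the listed region, did not stand out. Listed genes further out are not described here. CDK12, a transcriptional kinase, had 103, 112 and 146 CPM in HCC1954 and 86.0 to 212 CPM elsewhere. PSMD3, a proteasome subunit, had 230, 188 and 225 CPM in HCC1954 and 177 to 389 CPM elsewhere. The genes higher than every other line lay between CDK12 and PSMD3, from PPP1R1B to GSDMA, and GSDMA was at only 0.328 to 1.79 CPM. Not every gene tested in that stretch was among them, the others being STARD3, TCAP, PNMT, ERBB2 and IKZF3. PNMT, which makes adrenaline, had 0.235, 0.227 and 0.307 CPM in HCC1954, below SKOV3 with 3.11 to 6.16 CPM, and the log2 fold change against SKOV3 was -4.15 (edgeR adjusted p = 3.97e-06). TCAP, a muscle sarcomere protein, had 39.2, 39.8 and 41.7 CPM, above all other libraries but by a log2 fold change of only 0.92 against SKOV3. IKZF3, a lymphoid transcription factor, had 8.12 to 9.01 CPM in HCC1954 and 14.8 to 17.8 CPM in OVCAR8.

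**Figure D2:**
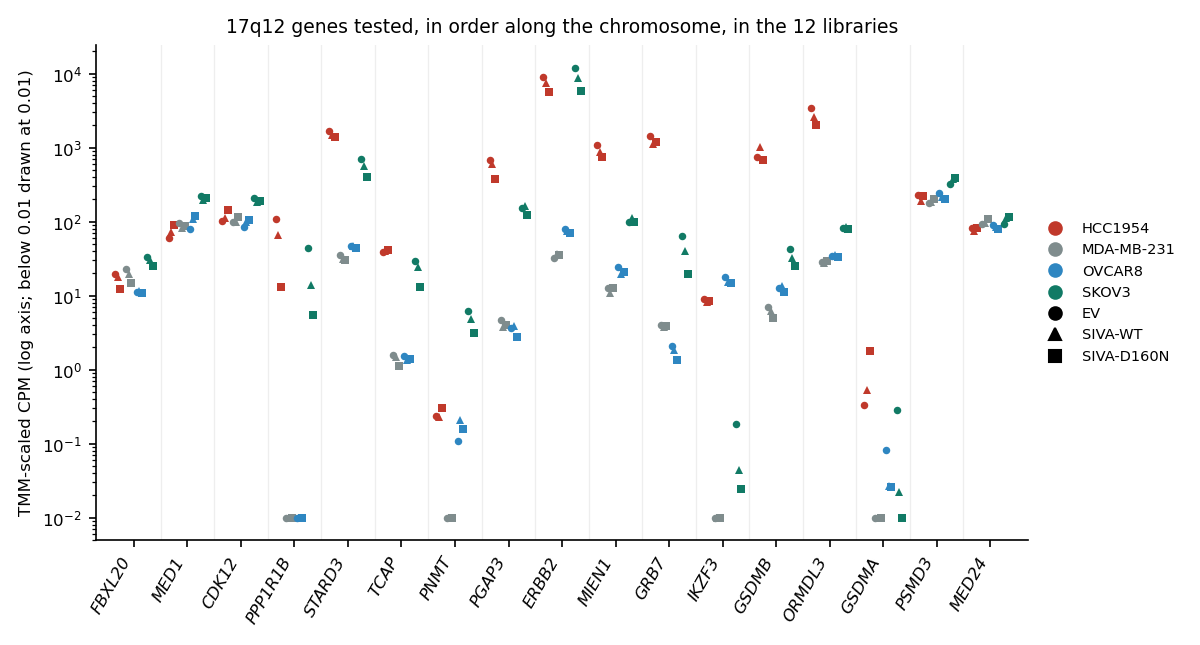
The 17 genes of the 17q12 list that could be tested, in order along chromosome 17, with TMM-scaled CPM on a log axis (values under 0.01 drawn at 0.01), 1 point per library, colour for the line and shape for the vector. The HCC1954 points are the highest for GRB7, GSDMB, ORMDL3 and MIEN1, meet the SKOV3 points for ERBB2, and sit among the other lines for CDK12 and PSMD3.

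The partners and ligands of ERBB2 also differed. ERBB3, the kinase-impaired partner of ERBB2, had 98.4, 99.1 and 73.7 CPM in HCC1954 and 27.5 to 37.1 CPM in OVCAR8, and under 2 CPM in the other lines; its log2 fold change against OVCAR8, 1.49, fell just short of the limit. EGFR had 181, 213 and 261 CPM, within the range of 181 to 359 CPM of the other 9 libraries. Of the 14 receptors and ligands tested, 5 were higher than every other line, all of them ligands (EGF, AREG, BTC, EPGN and NRG4). Lower than every other line were 2, namely NRG1 and HBEGF. The shares over all genes tested were 8.11% higher and 5.10% lower. NRG1, the ligand of ERBB3 and ERBB4, was in the absent set with 1, 0 and 1 counts in HCC1954 against 18.0 to 121 CPM elsewhere. HBEGF, a ligand of EGFR and ERBB4, had 1.31, 2.77 and 2.74 CPM against 8.52 to 313 CPM, with a log2 fold change of -4.24 (SE 0.36; edgeR adjusted p = 6.72e-07). EPGN, a ligand of EGFR, had 4.41, 7.62 and 14.7 CPM against at most 0.146 CPM.

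Most of the listed epithelial genes were higher in HCC1954 than in every other line. CDH1, which encodes E-cadherin, had 789, 799 and 679 CPM in HCC1954 and at most 0.486 CPM in any other library, a ratio of 1398 between the lowest HCC1954 and the highest other library. CDH3, the P-cadherin gene that lies beside it, had 688, 727 and 678 CPM against at most 0.811 CPM. All 3 of the other lines were thus nearly without either cadherin, and the HCC1954 libraries differed among themselves by no more than 1.18-fold in CDH1 and 1.07-fold in CDH3. Of the 25 regulators and targets of the epithelial programme tested, 23 were higher than every other line and none was lower, with a median log2 fold change of 9.80. Of the 25 junction and polarity genes tested, 18 were higher and none was lower, with a median of 4.41. Both shares stand beside 8.11% of all genes tested.

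Among the regulators, GRHL2, a grainyhead factor that activates CDH1, had 180, 197 and 237 CPM in HCC1954 and 1 count in 1 of the 9 other libraries. OVOL1, a repressor of ZEB1, had 10.9, 9.71 and 11.9 CPM against at most 0.0275 CPM. ESRP1, which directs epithelial splicing, had 398, 379 and 403 CPM, and the highest other value was 6.46 CPM in the MDA-MB-231 EV library. These 3 genes were level across the HCC1954 libraries. ELF3, an epithelial ETS factor, had 360, 402 and 397 CPM against at most 3.04 CPM. ST14, the membrane protease matriptase, had 255, 200 and 222 CPM against at most 1.10 CPM, and SPINT1, its inhibitor, had 338, 330 and 293 CPM against at most 1.24 CPM. KLF5 and AP1M2 were the 2 regulators and targets that were not higher than every other line, with 100 to 143 CPM of KLF5 in HCC1954 against 89.0 to 110 CPM in SKOV3, and 49.3 to 60.3 CPM of AP1M2 against 91.6 to 120 CPM in OVCAR8.

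Among the junction genes, CLDN7, a tight junction claudin, had 165, 150 and 138 CPM against at most 10.1 CPM, and EPCAM, an epithelial adhesion molecule, had 242, 201 and 229 CPM against at most 21.4 CPM. JUP, the desmosomal and adherens junction protein plakoglobin, had 592, 496 and 624 CPM against at most 45.1 CPM. Desmosomal genes did not all follow: DSP, which encodes desmoplakin, had 435, 473 and 517 CPM in HCC1954 and 371 to 448 CPM in OVCAR8. DSG2 had 174, 237 and 319 CPM, within the range of the other lines.

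Promoter sequence was available for some of these genes. The RefSeq table (GRCh38.p14) had a window around the start of 22 of the 37 members of both epithelial lists that fell in the high set. The E-box letters CACCTG, sought on both strands in the 150 bases before the start, were present in 10 of the 22 (45.5%) and in 3491 of all 27195 genes with a window (12.8%), a gene counting when any of its starts had a match. Starts on chromosomes 8 and X were searched for the 27195 genes but not for the 22, so 10 is the least possible. A match is a description of the letters and does not show that a factor binds there. The 4 sequences with at least 2 matches are shown, 5′ to 3′ on the strand of the gene, with the matches in capitals. Where a gene had several starts, the one with the most matches is shown. The sequences belong to a claudin, a polarity protein of the apical Crumbs complex, plakoglobin and a membrane channel-like protein.
CLDN7 at chr17:7262479-7262628, minus strand: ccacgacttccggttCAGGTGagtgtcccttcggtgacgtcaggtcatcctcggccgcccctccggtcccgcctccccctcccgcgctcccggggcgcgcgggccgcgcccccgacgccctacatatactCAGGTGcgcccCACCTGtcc
CRB3 at chr19:6464121-6464270, plus strand: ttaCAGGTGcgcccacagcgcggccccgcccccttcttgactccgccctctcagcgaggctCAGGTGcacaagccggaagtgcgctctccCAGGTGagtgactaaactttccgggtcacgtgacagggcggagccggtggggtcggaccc
JUP at chr17:41785977-41786126, minus strand: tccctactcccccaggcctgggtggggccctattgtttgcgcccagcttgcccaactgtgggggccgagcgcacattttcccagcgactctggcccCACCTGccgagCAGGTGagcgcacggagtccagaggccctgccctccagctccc
TMC4 at chr19:54173161-54173310, minus strand: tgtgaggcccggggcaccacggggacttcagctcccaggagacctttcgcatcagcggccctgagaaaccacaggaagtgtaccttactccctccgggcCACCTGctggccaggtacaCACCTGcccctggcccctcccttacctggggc
CRB3 had 14.1, 12.9 and 12.4 CPM in HCC1954 against at most 0.923 CPM, and TMC4 had 23.3, 23.7 and 7.95 CPM against at most 0.441 CPM. Over whole windows of 300 bases, 27% of the 788 windows of the high set and 19% of the 105 windows of the absent set held the letters, beside 20.6% of all 34961 windows.

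The mesenchymal programme was reduced in HCC1954 but not in every gene. Of the 25 factors and markers tested, 9 were lower than every other line and none was higher, with a median log2 fold change of -1.99, beside 5.10% of all genes lower. ZEB1 had 0.164, 0.796 and 1.59 CPM in HCC1954 against 20.02 to 110 CPM elsewhere, a log2 fold change of -6.22 (SE 0.41; edgeR adjusted p = 7.64e-08). ZEB2 had 0.305, 0.796 and 1.28 CPM against 9.56 to 42.1 CPM. VIM, the intermediate filament vimentin, had 93.5, 157 and 284 CPM against 2944 to 3999 CPM, and AXL, a receptor kinase, had 3.05, 4.68 and 10.1 CPM against 466 to 1104 CPM. In each of these 4 genes the HCC1954 libraries lay wholly below the others, and within HCC1954 the EV library was the lowest and the SIVA-D160N library the highest. Each vector had 1 library, so that order has no replicate, and in bulk RNA more expressing cells and more RNA per cell cannot be told apart.

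The other genes lower than every other line were FBN1, COL6A2, COL6A3, SPARC and LOXL2, all of them matrix proteins or enzymes that cross-link matrix. Several mesenchymal genes were at the level of the other lines or above some of them. SNAI2, an E-box repressor, had 22.1, 37.2 and 41.0 CPM in HCC1954, above MDA-MB-231 and OVCAR8 (2.79 to 10.2 CPM) and below SKOV3 (78.4 to 85.0 CPM). FN1, fibronectin, had 143, 336 and 217 CPM and overlapped with every other line, and CDH11, a mesenchymal cadherin, had 16.6, 31.8 and 27.9 CPM against at most 14.02 CPM. CDH2, which encodes N-cadherin, was near 0 in HCC1954 (0.0704 to 0.363 CPM) and in MDA-MB-231 (0.135 to 0.204 CPM) and had 109 to 199 CPM in the 6 ovarian libraries.

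**Figure D3:**
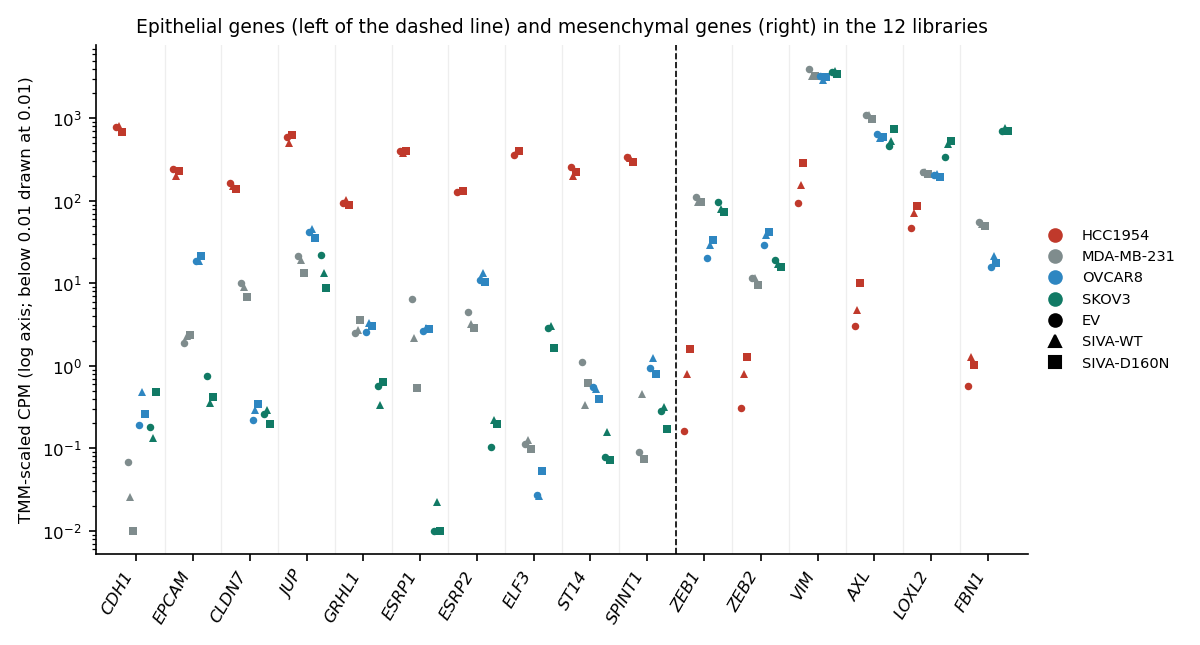
TMM-scaled CPM on a log axis (values under 0.01 drawn at 0.01) of 10 epithelial and 6 mesenchymal genes, chosen as examples after their values were known, 1 point per library, colour for the line and shape for the vector. HCC1954 lies above every other library in the 10 epithelial genes, for example at 679 to 799 CPM of CDH1, and below every other library in the 6 mesenchymal genes, for example at 93.5 to 284 CPM of VIM.

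Luminal and basal markers were raised side by side. Of the 16 luminal transcription factors and receptors tested, 10 were higher than every other line and 1, CA12, was lower. The median log2 fold change was 5.84, and over all genes tested 8.11% were higher and 5.10% lower. FOXA1, a pioneer factor of luminal cells, had 123, 121 and 102 CPM against at most 5.42 CPM. TFAP2C, an AP-2 factor, had 130, 124 and 115 CPM against at most 6.97 CPM. Both genes separated HCC1954 from all other libraries by at least 16.5-fold. ESR1, the oestrogen receptor, had 11.99, 11.1 and 7.23 CPM against at most 2.36 CPM, and PGR, its target, had 0, 1 and 0 counts. GATA3 had 48.6, 41.9 and 46.3 CPM against at most 6.31 CPM.

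Of the 18 basal and squamous markers tested, 8 were higher than every other line and 1 was lower. Their median was 6.33, and over all genes tested 8.11% were higher and 5.10% lower. KRT5, the basal keratin, had 234, 395 and 569 CPM against at most 0.632 CPM, and TP63, a master factor of basal and squamous cells, had 98.8, 96.0 and 69.0 CPM against at most 0.692 CPM. KRT17 had 523, 478 and 866 CPM, with 60.1 CPM as the highest other value, in the SKOV3 SIVA-D160N library. KRT6A had 32.7, 69.4 and 187 CPM, and 0 counts in the other 9 libraries; reads of KRT6A, KRT6B and KRT6C can be split between these near-identical genes, so the single values are uncertain. KRT14, the partner of KRT5, overlapped between HCC1954 and SKOV3, with 7.23 to 12.2 CPM beside 6.60 to 16.0 CPM in SKOV3.

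Beside 8.11% of all genes tested, 4 of 8 simple epithelial keratins tested were higher than every other line: KRT15, KRT81, KRT7 and KRT23. KRT15, a keratin of basal progenitors that was listed with them, had 3454, 2820 and 2203 CPM against at most 20.8 CPM, with a log2 fold change of 9.41 (SE 0.17; edgeR adjusted p = 3.98e-12). KRT81, a hair keratin with close paralogs in the same cluster, had 1516, 1451 and 2684 CPM against at most 64.2 CPM. KRT8 had 2802, 2688 and 3716 CPM and exceeded OVCAR8, with 1717 to 2054 CPM, by a log2 fold change of only 0.74. KRT19, a marker of luminal cells, was at 13.2 to 30.2 CPM, below the 64.6 to 91.3 CPM of MDA-MB-231. The type II keratin cluster on chromosome 12 held a run of 10 genes of the high set with no other detected gene among them, from KRT7 to KRT4 at chr12:52233243-52814116.

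Genes of the cornified envelope and of squamous and secretory epithelia were also raised. Of the 29 listed, 22 could be tested, and 11 of these had no count in the other 9 libraries. Beside 8.11% of all genes tested, 19 of the 22 were higher than every other line, and none was lower. The median log2 fold change was 10.28, or 8.497 when those 11 genes were set against the limit of 3 counts. The kallikrein proteases led the high set: KLK5, which cleaves the proteins that hold cornified cells together, had 822, 725 and 570 CPM in HCC1954 and 0 counts in the other 9 libraries, at least 6896-fold higher. KLK6 had 493, 455 and 908 CPM and also 0 counts elsewhere, at least 5505-fold higher. The run of 5 genes from KLK5 to KLK10 at chr19:50943303-51020097 was in the high set, and KLK11, the next gene of the list, had 0 counts in all 12 libraries.

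S100A9, a calcium-binding alarmin, had 911, 731 and 322 CPM and 0 counts in the other 9 libraries, at least 3894-fold higher. S100A8, which pairs with it in calprotectin, had 189, 176 and 45.0 CPM and likewise 0 counts elsewhere. In both, the HCC1954 SIVA-D160N library was the lowest of the 3. SERPINB3, a protease inhibitor of squamous epithelia, ran in the opposite order with 15.4, 42.5 and 61.6 CPM and 0 counts elsewhere; its reads are uncertain because SERPINB4 is a near-identical copy. Outside the lists, CEACAM6, a carcinoembryonic adhesion molecule, had 340, 386 and 242 CPM and 0 counts elsewhere, at least 2926-fold higher. STEAP4, a metalloreductase, had 519, 715 and 580 CPM against at most 0.170 CPM.

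**Figure D4:**
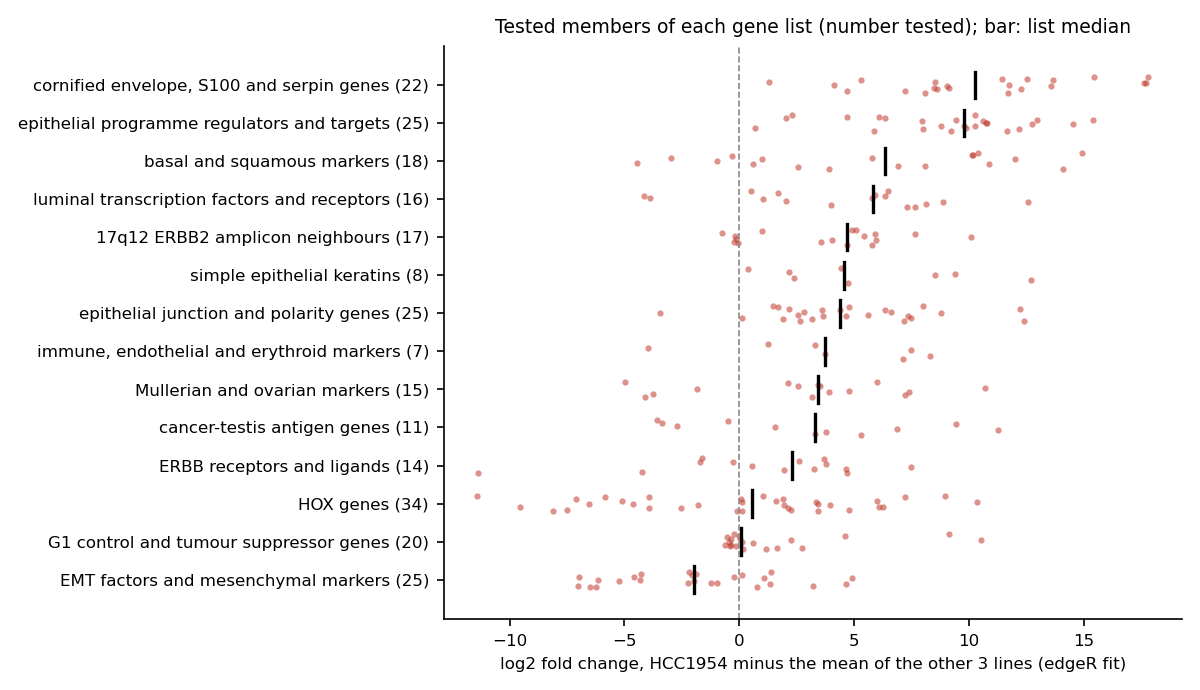
The log2 fold change of HCC1954 against the mean of the other 3 lines (edgeR fit) for each tested member of the 14 gene lists, 1 point per gene, with the list median as a bar, the number tested in brackets and the median over all genes tested as a dashed line. The medians run from -1.99 for the mesenchymal list to 10.28 for the cornified envelope list; points beyond about 10 belong largely to genes with almost no counts in the other lines, whose fitted value depends on the prior count.

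Markers named for other tissues moved too. Of 15 Müllerian and ovarian markers tested, 4 were higher than every other line (CD24, MUC1, MUC16 and HOXA9), and none was lower. Over all genes tested, 8.11% were higher and 5.10% lower. MUC16, the antigen CA125, had 64.6, 74.1 and 112 CPM in HCC1954 and at most 1.55 CPM in the ovarian lines. CD24, an adhesion glycoprotein of epithelial cells, had 1954, 2152 and 1535 CPM against at most 239 CPM. The defining factor PAX8 had 1.52 to 2.57 CPM in HCC1954 against 61.4 to 242 CPM in the ovarian libraries. Of the 15 immune, endothelial and erythroid markers, 7 could be tested and 3 were higher than every other line, beside 8.11% of genes tested. PECAM1, an adhesion molecule of endothelium and platelets, had 61.4, 58.9 and 31.8 CPM against at most 1.82 CPM, and CDH5, the cadherin of endothelium, had 24.8, 15.4 and 12.2 CPM against at most 0.716 CPM. The summed level of that list was 92.4, 81.6 and 52.5 CPM in HCC1954 and 0.510 to 8.57 CPM elsewhere. The defining markers CD3D, MS4A1, HBB and HBA1 had 0 counts in HCC1954, PTPRC had 0.305 to 0.614 CPM and VWF had 1.17 to 3.35 CPM. The part of other cell types in these values was not tested.

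Of the 34 HOX genes tested, 5 were higher and 7 were lower than every other line, with a median log2 fold change of 0.58, beside 8.11% higher and 5.10% lower over all genes tested. The higher ones were HOXA2, HOXA3, HOXA9, HOXC11 and HOXC13, and the lower ones belonged to the HOXB and HOXD clusters. HOXC13 had 45.8, 38.6 and 34.6 CPM against 2.71 to 3.36 CPM in OVCAR8 and 0 counts in the other 6 libraries. HOXB9 had 2.98, 1.96 and 2.74 CPM against 23.3 to 66.4 CPM. Among 11 cancer-testis genes tested, 3 were higher than every other line, beside 8.11% of all genes tested. Of these, MAGEA3 had 88.4, 72.5 and 88.2 CPM and MAGEA6 had 82.9, 73.2 and 85.9 CPM. The MAGEA3 and MAGEA6 genes are near-identical, so that their reads cannot be assigned with certainty. Summed over the 29 listed cancer-testis genes, HCC1954 had 194, 178 and 201 CPM and OVCAR8 a like level of 233, 220 and 195 CPM. Of the 20 genes of G1 control tested, 2 were higher than every other line, a share near the 8.11% of all genes tested, and none was lower. CCND1, cyclin D1, had 1465, 1384 and 2622 CPM against at most 631 CPM, and CDKN2B, an inhibitor of CDK4 and CDK6, had 58.0, 79.6 and 42.9 CPM against at most 7.94 CPM, with 0 counts in MDA-MB-231 and SKOV3.

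Genes of the high set also lay next to one another. Positions were matched for 765 of its 859 genes, and 26 runs of at least 3 members were found with at most 1 detected gene between consecutive members. A detected gene had a matched position and at least 1 CPM in some library. How many runs a set of this size gives without any clustering was not tested. The high set held 5.42% of the tested genes on chromosome 5 and 4.29% on chromosome 17, where only detected genes were counted. Its share of all genes tested, detected or not, was 4.47%, so these shares have unlike bases. Besides the keratin, kallikrein and 17q12 runs, the distal short arm of chromosome 5 held a run of 10 members from EXOC3-AS1 to CLPTM1L (chr5:441835-1345099), followed by MRPL36, NDUFS6, IRX2 and C5orf38 (chr5:1798385-2758578). TRIP13, a mitotic checkpoint ATPase, had 996, 944 and 1221 CPM against 40.0 to 115 CPM elsewhere, and BRD9, a chromatin remodelling subunit, had 748, 793 and 894 CPM against 49.1 to 76.4 CPM. EXOC3, a vesicle tethering subunit, had 293, 308 and 288 CPM against 34.2 to 43.9 CPM. BRD9 and EXOC3 shifted by a like amount against each of the other lines, whereas TRIP13 spread more widely among the other 9 libraries. The log2 fold changes of BRD9 were 3.55, 3.80 and 3.99 against MDA-MB-231, OVCAR8 and SKOV3, and those of EXOC3 were 2.83, 3.06 and 3.02. TERT, the telomerase gene that lies within the run, did not follow, with 0.977 to 1.196 CPM in HCC1954 against 1.91 to 10.0 CPM elsewhere. IRX2, a homeobox factor, had 169, 135 and 143 CPM and 0 counts in the other 9 libraries, at least 1636-fold higher.

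On chromosome 6, HLA-DOB, PSMB8, PSMB8-AS1, TAP1 and PSMB9 formed a run at chr6:32812763-32859851 that serves peptide processing and antigen presentation. PSMB9, an immunoproteasome subunit, had 81.9, 85.0 and 65.8 CPM against at most 7.95 CPM, and TAP1, a peptide transporter, had 167, 155 and 148 CPM against at most 49.3 CPM. TAP2, its partner, had 85.8 to 121 CPM against 10.3 to 53.3 CPM and stayed outside the high set. PSMB8 and PSMB8-AS1 overlap on opposite strands, and the strand setting of the counting is not given in the sources used here.

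The absent set held genes that the other lines used at high levels. LDHB, the lactate dehydrogenase B subunit, had 0, 1 and 1 counts in HCC1954 and 323 to 1079 CPM in the other 9 libraries. GSTP1, a glutathione transferase that detoxifies electrophiles, had 0, 1 and 0 counts against 237 to 1062 CPM. No HCC1954 library came near the range of the others for either gene, whereas LDHA, the A subunit, was present at 810, 781 and 1224 CPM. TMX3, a thioredoxin-like enzyme of the endoplasmic reticulum, had 0 counts in all 3 HCC1954 libraries and 52.3 to 106 CPM elsewhere, at least 625-fold lower when the HCC1954 libraries are set at 3 counts. RNF26, a ubiquitin ligase of the endoplasmic reticulum, had 0, 1 and 0 counts against 75.8 to 122 CPM, and ZSCAN18, a zinc finger gene, had 0 counts against 43.5 to 62.9 CPM, at least 520-fold lower. CBR1, a carbonyl reductase, had 1, 0 and 0 counts against 27.1 to 140 CPM.

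Other members had 0 counts throughout HCC1954: NNT, the mitochondrial transhydrogenase that makes NADPH, had 4.62 to 90.5 CPM elsewhere, at least 55.2-fold lower, and CD40, a receptor of the TNF family, had 9.52 to 53.0 CPM elsewhere, at least 114-fold lower. BCAT1, which transfers amino groups from branched-chain amino acids, had 3, 2 and 3 counts against 4.73 to 286 CPM. Over the 107 genes the median of the lowest other library was 4.47 CPM, and 29 genes had at least 10 CPM in each of the other 9 libraries. Of the 3 runs of absent neighbours, 1 held RPL23AP53, ZNF596 and TDRP on chromosome 8. SNHG6 and FABP5 are also in the set, and FABP5 has pseudogene copies that can share its reads.

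**Figure D5:**
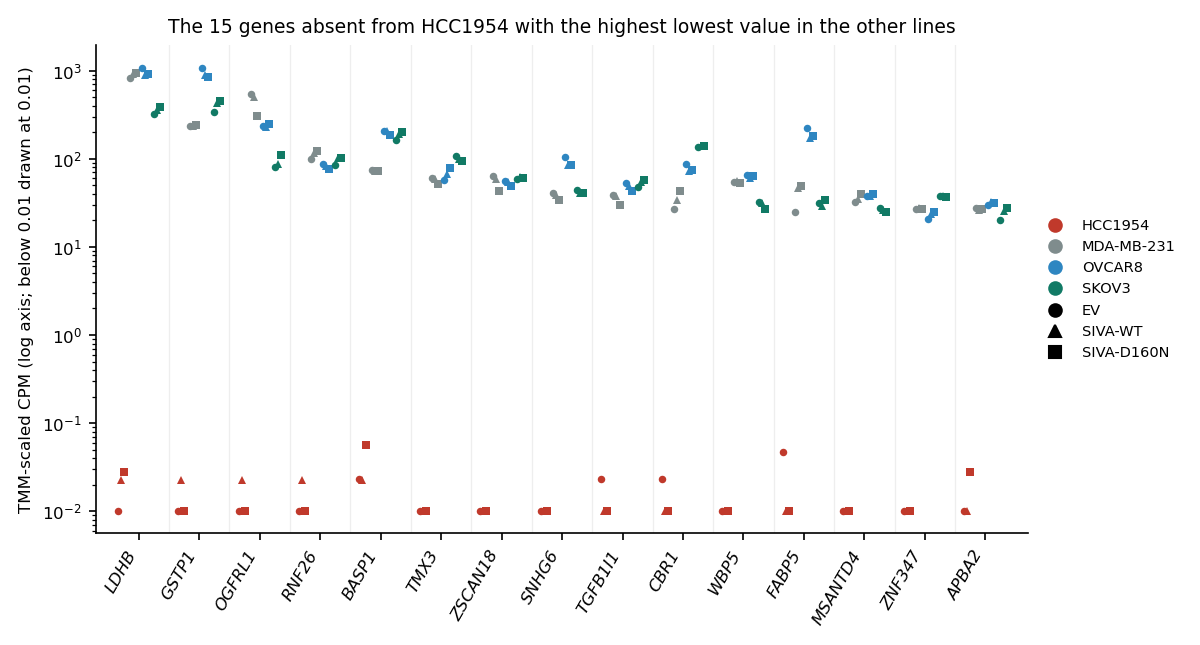
TMM-scaled CPM on a log axis (values under 0.01 drawn at 0.01) of the 15 genes of the absent set with the highest value in the lowest other library, 1 point per library, colour for the line and shape for the vector. All HCC1954 points (red) lie at or below the value of 2 counts, whereas every other library lies at 20.05 CPM or above.

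Zinc finger genes made up a share of the absent set. Of 458 tested genes with a ZNF number, 17 were in the absent set (3.71%, beside 0.557% of all genes tested), and 12 of these were among the 232 that lie on chromosome 19 (5.17%). Against every other line, 25 of the 232 were lower and 1 was higher, beside 5.10% lower and 8.11% higher over all genes tested. Of the 226 ZNF-numbered genes elsewhere or without a position, 12 were lower and 6 higher, and 5 (2.21%) were in the absent set. The lower level thus lay mainly in the genes of chromosome 19. ZNF880, ZNF528-AS1 and ZNF528 formed a run at chr19:52366858-52418401, and ZNF415, ZNF347 and ZNF665 another at chr19:53107879-53193358. ZNF347 had 0 counts in HCC1954 and 20.8 to 37.7 CPM elsewhere, at least 248-fold lower, and ZNF528 had 1, 2 and 2 counts against 12.9 to 55.1 CPM. Reads of ZNF528 and ZNF528-AS1, which lie on opposite strands, may not be separable.

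Sequences before the start of 4 absent genes are shown because CpG dinucleotides in promoters are where DNA methylation acts, and methylation was not measured here; every CpG is in capitals, and the sequence runs 5′ to 3′ on the strand of the gene (RefSeq, GRCh38.p14).
GSTP1 at chr11:67583662-67583811, plus strand: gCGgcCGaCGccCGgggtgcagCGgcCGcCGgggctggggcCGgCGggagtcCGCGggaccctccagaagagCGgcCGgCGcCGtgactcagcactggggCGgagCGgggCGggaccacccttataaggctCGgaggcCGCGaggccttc
CBR1 at chr21:36069874-36070023, plus strand: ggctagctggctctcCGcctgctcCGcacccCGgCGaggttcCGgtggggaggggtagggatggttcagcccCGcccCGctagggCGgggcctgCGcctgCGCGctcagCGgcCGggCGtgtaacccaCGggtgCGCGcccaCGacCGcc
ZNF347 at chr19:53159054-53159203, minus strand: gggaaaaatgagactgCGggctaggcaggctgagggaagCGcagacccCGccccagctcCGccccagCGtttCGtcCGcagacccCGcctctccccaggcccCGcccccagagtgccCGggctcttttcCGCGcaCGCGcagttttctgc
ZNF528 at chr19:52397699-52397848, plus strand: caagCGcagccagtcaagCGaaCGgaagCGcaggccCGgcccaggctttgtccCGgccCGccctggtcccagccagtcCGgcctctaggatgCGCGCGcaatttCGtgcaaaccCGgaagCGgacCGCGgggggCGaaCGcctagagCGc
These 4 windows of 150 bases held 21, 19, 14 and 19 CpG, and they are examples. In like windows, OGFRL1, TMX3, ZSCAN18, TGFB1I1 and APBA2 held 18 to 21, and BASP1 held 16. Fewer were found in ZNF880 (13), RNF26 (11), ZNF415 (8), LDHB (6) and MSANTD4 (5). Where a gene had several starts, the window with the most CpG was taken, so its count is the highest of them. This holds for APBA2 with 5 starts, TGFB1I1 with 3, and ZSCAN18 and MSANTD4 with 2 each. Absent genes as a set were not richer in CpG than the genes tested: a median of 24 CpG per 300-base window was found over the 105 windows of 75 absent genes and also over the 17935 windows of 12390 tested genes, beside 12 in the high set and 14 in all windows.

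The high set varied among the HCC1954 libraries. In 625 of its 859 genes the 3 libraries lay within 2-fold of each other, and the median ratio of the highest to the lowest was 1.58. In the other 234 genes the lowest library was SIVA-D160N in 190, EV in 38 and SIVA-WT in 6. The same split was not made over all genes tested, so it cannot be called particular to the high set. Each vector had 1 library, so the order has no replicate. CYP4B1, a cytochrome P450 that handles fatty acids, had 128, 94.4 and 13.2 CPM and 0 counts in the other lines, and PADI2, a peptidylarginine deiminase, had 90.4, 65.6 and 12.5 CPM against at most 0.729 CPM. GLYATL2 had 127, 118 and 21.2 CPM and AKR1C2, a steroid-metabolising reductase with close paralogs, had 176, 140 and 32.3 CPM. In these 4 genes the SIVA-D160N library was lowest and still above every library of the other lines. KRT6A, given above, ran the opposite way. Without the SIVA-D160N library of HCC1954, the high set held 1120 genes in place of 859.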

How the data were processed

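Poly(A) RNA from 4 cell lines was sequenced as paired-end TruSeq Stranded mRNA libraries, 1 per line and vector. The authors deposited raw counts per gene, aligned to GRCh38 with STAR 2.5.3a according to the submitters' processing notes; the counter and its strand setting are not given in the sources used here. A deposited CPM table of the same libraries was not used. From the counts, genes were kept by filterByExpr, scaled by TMM and fitted with the quasi-likelihood test of edgeR 4.0.16 (R 4.3.3) on all 12 libraries with line and vector as terms. Adjusted p-values are Benjamini-Hochberg values over all 19204 genes. Totals of 35791455 to 45890398 counts set the precision; limits from 3 counts cover counting error only. DESeq2 1.42.0, limma-voom (limma 3.58.1), other scalings, filters and thresholds, and leaving out libraries were tried as alternatives.

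The members and the 14 gene lists were chosen with earlier results of these data known. Genes were named by rule: SIVA1 and the 17q12 list, the 15 highest ratios in the high set, the 15 highest levels in the absent set, leading and defining list members, neighbouring genes, the 5 most variable members, and genes at the limits. CRB3, TMC4, CBR1, NNT, CD40, BCAT1, LDHA and other single genes outside that rule were chosen after their values were seen. Positions and promoters came from RefSeq (GRCh38.p14), matched by symbol or by an unambiguous synonym. Among the tested genes, 16163 had a position and 12390 a promoter, and CDH1, EPCAM and GRHL2 had no promoter entry. Some genes of the lists are counted with their list and are not reported here by name.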

Additional observations from a re-analysis of the deposited data

How the results depend on the processing

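The libraries of a line share that line, so with counts summed per line edgeR called 0 genes higher and 0 lower, with no test able to speak for other breast lines. The counts against the mean and against every other line otherwise kept within 1.5-fold under DESeq2, limma-voom, median-ratio scaling, no expression filter, no vector term and a log2 limit of 1, and those against the mean also when 1 of the other lines was left out. Libraries were matched across lines by vector, and without that term 1564 genes were higher and 982 lower than every other line. Leaving out each library in turn gave 3133 to 3560 higher and 2048 to 2201 lower genes against the mean, 1513 to 1785 and 910 to 999 against every other line, 861 to 1120 genes in the high set and 107 to 119 in the absent set. A 10-fold margin left 441 genes in the high set and a minimum of 10 CPM left 472. A minimum of 10 CPM elsewhere left 29 genes in the absent set and a limit of 0 counts in HCC1954 left 44. The log2 fold change against the mean changed sign for KRT19 (-0.27) and PNMT (-2.64) with counts summed, for PNMT without MDA-MB-231 (-1.74), for DSG2 without MDA-MB-231 (-0.11) or OVCAR8 (-0.0041), and without SKOV3 for PSMD3 (0.093), AP1M2 (-0.25) and CDK12 (0.28). Leaving out single libraries took CDK12 from -0.15 to 0.026 (above 0 without HCC1954 EV), DSG2 from -0.038 (without HCC1954 SIVA-D160N) to 0.26, and FN1 from -0.035 (without HCC1954 SIVA-D160N) to 0.34, with -0.028 and -0.030 for FN1 without HCC1954 SIVA-WT and OVCAR8 SIVA-D160N. Depth limits what can be said of genes near 3 counts.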
